A study of Rattus norvegicus with 10 samples.

Results

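The genes followed here mark the endothelium of the liver or carry leukocytes across it: Pecam1, Cdh5, Kdr, Tek, Stab2, Vwf, Thbd, Icam1, Vcam1 and Sele. A gene was counted as measured where the accession of an array probe gave its symbol or an older alias, which held for 8 of the 10 genes, among 13426 genes with a symbol on the array. Tek had 2 such probes, and each other measured gene had 1. Vwf was reached through 1 probe that only the study's own list of regulated probes ties to it, so its values are a description without a test behind them, and Stab2 was not analysed here.

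Liver RNA came from male Wistar rats in 3 groups. Control rats (n = 3) were not irradiated, TBI rats (n = 3) received a single whole body dose of gamma rays from a cobalt source, 6.5 Gy by the labels though the study's text gives another dose, and MASM + TBI rats (n = 4) were given MASM by stomach tube at 30 mg/kg a day for 3 days before the same irradiation. MASM is a derivative of matrine, a plant alkaloid, and no rat here received MASM without irradiation. All livers were taken at 24 h, and the age of the rats is not given in the labels. Each rat has 1 Cy3 array, and values are log2 signals after quantile normalization. The 10 arrays lay on 3 slides: MASM + TBI rat 3 shared slide 1 with all controls, the TBI rats filled slide 2 alone, and the other MASM + TBI rats were on slide 3, so for TBI against either other group slide and treatment cannot be told apart.

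Hepatic sinusoids are lined by a thin, perforated endothelium with no continuous basement membrane, which clears material from the blood and is a known target of radiation injury in the liver. Its cells hold to each other through cadherin and PECAM contacts, depend on VEGF and angiopoietin receptors for their maintenance, and keep the blood fluid through thrombomodulin. When cytokines activate endothelium, selectins slow passing leukocytes, and ICAM and VCAM proteins then bind leukocyte integrins and hold the cells in place.

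No measured member passed the test in any of the 3 comparisons, 2 of which share the control rats. With limma, a call being an adjusted p below 0.05 and a change of 1.5-fold or more, 0 of 8 genes were called for TBI against control, where 4.5% of all 40945 probes were, and likewise 0 of 8 for MASM + TBI against control (2.35% of all probes) and for MASM + TBI against TBI (1.39%). Across the 3 groups the F test passed 0 of 8 members and 5.65% of all probes. By the unadjusted rule, the study's own, with p below 0.05 before adjustment and the same fold, limma counted 0 members for TBI against control (12.6% of all probes), 2 for MASM + TBI against control (8.06%) and 0 for MASM + TBI against TBI (7.98%). By direction, that rule took 6.53% of all probes as higher and 6.09% as lower for TBI against control, 3.52% and 4.55% for MASM + TBI against control, and 3.15% and 4.83% for MASM + TBI against TBI. Without a fold limit, an unadjusted p under 0.05 was reached by 2, 2 and 1 of 8 members in that order, beside 23.5%, 17% and 17% of all probes, the last being Sele, which was not well above background in any rat. The methods' t-test, run with unequal variances on log2 values, counted 0, 1 and 0 members at the unadjusted rule, beside 7.09%, 5.76% and 4.07% of all probes, and 0 after adjustment in each comparison. After adjustment it also ended every call with all rats, at the brightest probe, of the genes described below, Cdkn1a included (adjusted p = 0.129 for TBI and 0.0689 for MASM + TBI against control). Counts over members take the brightest probe of each. Members' differences from control had a median of 0.00 in TBI rats and -0.18 in MASM + TBI rats, beside -0.03 and 0.00 over all probes, and the median was -0.31 for MASM + TBI against TBI, beside 0.04 over all probes.

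**Figure D1:**
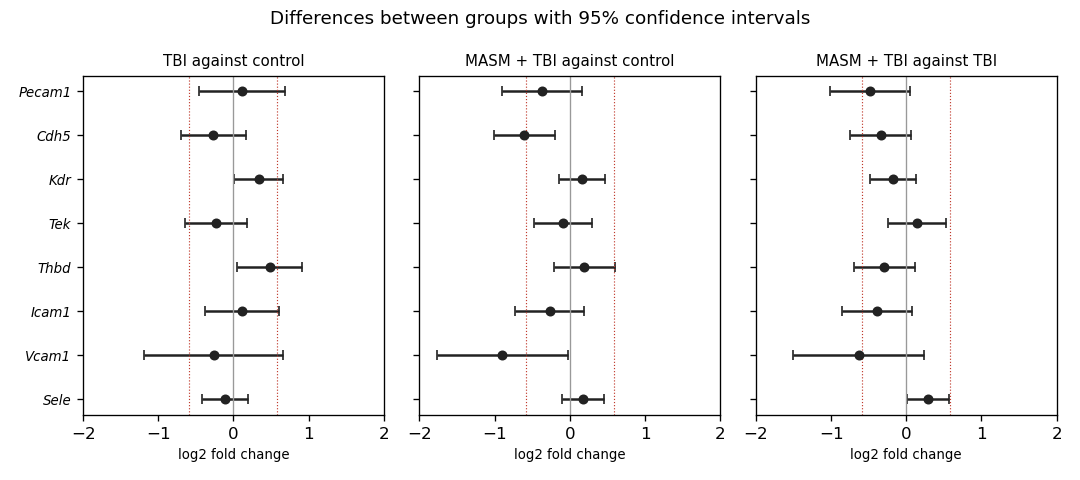
Log2 fold change of each measured member in the 3 comparisons, with limma's unadjusted 95% confidence interval; dotted lines mark a 1.5-fold change. For MASM + TBI against control the intervals of Cdh5 (-1.01 to -0.20) and Vcam1 (-1.77 to -0.03) lie below 0.

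Targets of p53 mark the response to irradiation. Cdkn1a, which halts the cell cycle after DNA damage, read 8.01, 8.25 and 8.84 in control rats, 13.47, 13.67 and 14.06 in TBI rats, and 13.06, 13.23, 12.80 and 13.58 in MASM + TBI rats. All 7 irradiated rats lay far above all 3 controls. Along with Cdkn1a, the p53 targets Mdm2, Ccng1, Btg2 and Phlda3 rose in both irradiated groups, so that 5 of 5 genes of this list were called against control in each, and 0 of 5 were called between the irradiated groups, at the unadjusted rule also 0. Btg2, an inhibitor of proliferation, was close to the threshold in MASM + TBI rats (log2 2.62, adjusted p = 0.0481), and its call there was lost on leaving out any rat but MASM + TBI rat 4 (adjusted p of 0.0550 to 0.152). After TBI the call of Btg2 was lost without control rat 1 or 3 or TBI rat 2 or 3 (adjusted p = 0.0722, 0.0805, 0.0671 and 0.0514), and that of Mdm2, which degrades p53, without control rat 3 (0.0554). With the slide as a block, which sets MASM + TBI rat 3 against the controls, Cdkn1a at 4.43 and Phlda3 at 2.49 were still called (adjusted p = 0.0115 and 0.0141), and Ccng1 at 1.95, Mdm2 at 1.06 and Btg2 at 3.30 were not (adjusted p = 0.0558, 0.0742 and 0.217). Fitted within slide 1 alone, 0 of 5 were called (adjusted p of 0.0785 to 0.265), and with only the compared groups in the fit the call of Btg2 in MASM + TBI rats was lost (0.0775).

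Pecam1 and Cdh5 build the contacts between endothelial cells. Cdh5 encodes VE-cadherin, the adherens junction protein of endothelium, and read 7.20, 7.96 and 7.47 in control rats, 7.23, 7.39 and 7.21 in TBI rats, and 6.96, 7.19, 6.77 and 6.84 in MASM + TBI rats. Every MASM + TBI rat lay below every rat of both other groups, though the highest of them was only just under the lowest control, while control and TBI rats overlapped. MASM + TBI rats differed from control by -0.61 on the log2 scale (SE 0.18, 95% interval -1.01 to -0.20), which met the unadjusted rule and not limma's adjusted one (adjusted p = 0.120). Without control rat 2 the difference was -0.40 and with the normexp correction -0.32, both under 1.5-fold, so that the unadjusted rule was no longer met. Leaving out MASM + TBI rat 3 or rat 4 also took it under 1.5-fold. Over the rats left out it ran from -0.78 to -0.40. Against TBI rats the difference was -0.34 (SE 0.18, adjusted p = 0.386), and between TBI and control rats -0.27 (SE 0.19, adjusted p = 0.435). The latter ran from -0.44 to -0.06 when single rats were left out. Among members Cdh5 also had the smallest p of the F test (adjusted p = 0.148). Fewer cells of a type and less RNA in each cell cannot be told apart in whole liver, for this gene and for those that follow.

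Pecam1 encodes CD31, which sits at endothelial borders and also on platelets and leukocytes. It read 4.80, 5.58 and 5.10 in control rats, 5.17, 5.61 and 5.06 in TBI rats, and 4.85, 4.91, 4.37 and 5.04 in MASM + TBI rats. All MASM + TBI rats were below all TBI rats, the closest pair barely so, and the control rats spanned most of the range of both. The difference was -0.49 (SE 0.23, adjusted p = 0.339) for MASM + TBI against TBI, and -0.37 (SE 0.23, adjusted p = 0.502) against control. The latter ran from -0.55 to -0.16 when single rats were left out, and was -0.09 with the normexp correction. Groups did not overlap for 0 of 8 members in TBI against control, where this held for 30.3% of all probes, for Cdh5 and Vcam1 in MASM + TBI against control (2 of 8, 18.3% of all probes), and for Cdh5 and Pecam1 in MASM + TBI against TBI (2 of 8, 18.5%). With 8 members, 2 genes are little more than the share over all probes, and no result about the members as a group.

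MASM + TBI rat 3 was the only rat of its group on the slide of the controls, and for MASM + TBI against control a slide block leaves that rat against the 3 controls. Its Cdh5 differed from theirs by -0.77 (adjusted p = 0.318 with the block and 0.475 within the slide), its Pecam1 by -0.79 (adjusted p = 0.300 and 0.474), and its Vcam1 by -0.64 (adjusted p = 0.413 and 0.449). For Thbd, Tek and Icam1 the same value was 0.06, -0.24 and -0.28, and for Kdr it was -0.05, opposite in sign to the difference over all rats.

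**Figure D2:**
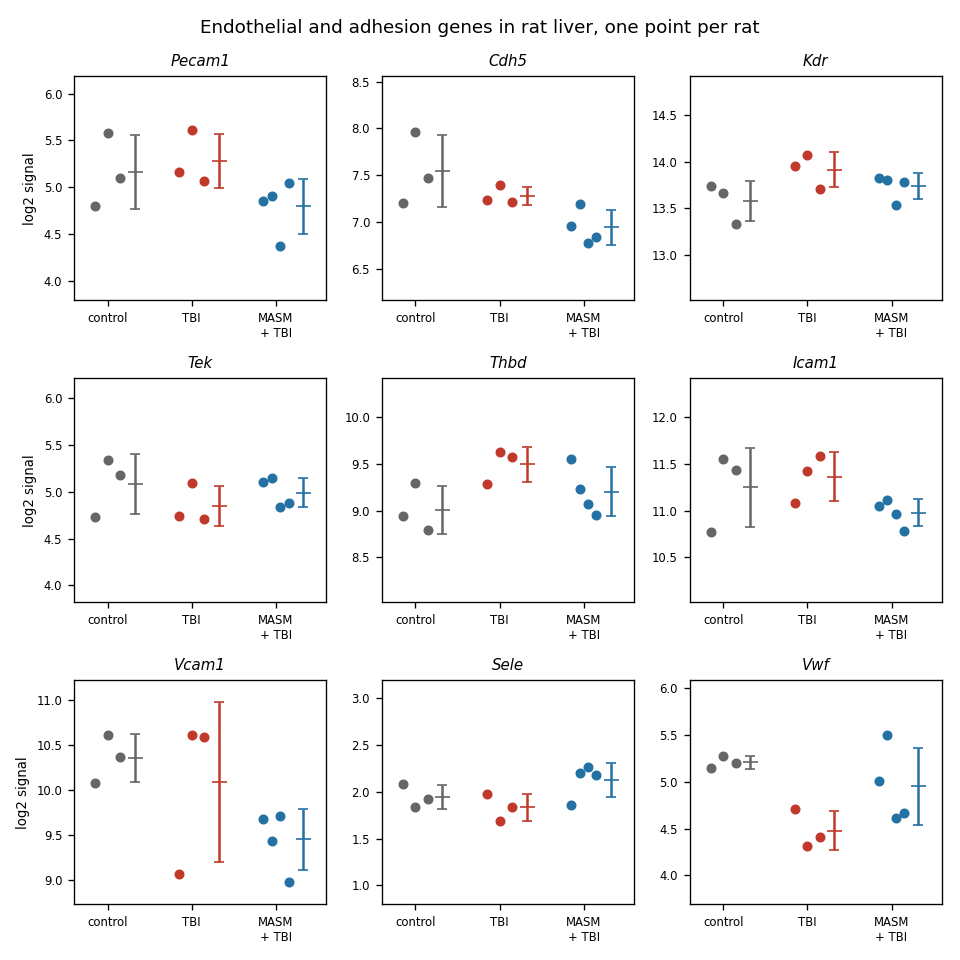
Log2 signal of the 8 measured members (Tek by its brighter probe) and of Vwf in each rat, 1 point per rat, with the group mean and SD as a bar to the right. Cdh5 lies lowest in the 4 MASM + TBI rats, and TBI rat 1 stands apart from the other TBI rats for Vcam1; each panel has its own axis.

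The receptor tyrosine kinases Kdr and Tek carry VEGF and angiopoietin signals into endothelium. Kdr (VEGFR2), the main signalling receptor for VEGF-A, read 13.74, 13.66 and 13.33 in control rats, 13.96, 14.07 and 13.71 in TBI rats, and 13.83, 13.81, 13.53 and 13.78 in MASM + TBI rats. TBI rats 1 and 2 were above every other rat, and TBI rat 3 lay among the controls. Its difference of 0.33 (SE 0.14, 95% interval 0.00 to 0.66, adjusted p = 0.209) for TBI against control stayed under 1.5-fold, and the differences of MASM + TBI rats were 0.16 from control (adjusted p = 0.649) and -0.18 from TBI (adjusted p = 0.557).

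Tek (TIE2) binds the angiopoietins, and its 2 probes did not give the same picture. The brighter one read 4.73, 5.34 and 5.18 in control rats, 4.74, 5.10 and 4.71 in TBI rats, and 5.11, 5.14, 4.84 and 4.88 in MASM + TBI rats, with the groups overlapping throughout (-0.23 for TBI and -0.09 for MASM + TBI against control, adjusted p = 0.473 and 0.910). The dimmer probe read 4.44, 4.37 and 4.24 in control rats, 3.54, 3.95 and 3.04 in TBI rats, and 3.78, 3.98, 3.18 and 3.88 in MASM + TBI rats, so that all irradiated rats were below all controls. By that probe TBI rats differed from control by -0.84 (SE 0.26, adjusted p = 0.104), and both irradiated groups met the unadjusted rule against control. It was well above background in 2 of 3 TBI rats and in no MASM + TBI rat, which leaves for MASM + TBI a bound of at least 1.33-fold lower than control (adjusted p = 0.225), taking the lowest signal called above background on each array where the probe itself was dimmer.

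Ligands of these receptors were measured for 7 of 7 listed genes, with 1 called higher for TBI against control and 0 called in the other comparisons, where 0 higher and 1 lower passed the unadjusted rule each time. The called gene, Vegfd, was not well above background on any array, so no fold is given, and its call was lost without any control, TBI rat 1 or 3, or MASM + TBI rat 2 (adjusted p of 0.0531 to 0.104), with only the compared groups in the fit (0.0650) and with a normexp background correction (0.136). Vegfa, which feeds Kdr, had the list's brightest probe and differed by -0.17 in TBI and -0.16 in MASM + TBI rats from control (adjusted p = 0.744 and 0.876). Angpt2, the angiopoietin that endothelium stores and that can oppose Tek signalling, is named after its values were seen. It read 6.47, 6.59 and 6.95 in control rats, 5.07, 6.51 and 6.20 in TBI rats, and 5.35, 5.62, 5.09 and 4.58 in MASM + TBI rats. The 4 MASM + TBI rats lay below all controls, with a difference of -1.51 that did not pass (SE 0.36, adjusted p = 0.0687), and TBI rat 1 lay among them. A second probe of Angpt2 was not well above background in any MASM + TBI rat (adjusted p = 0.112), and the last of its 3 probes was dim on all arrays. Angpt1, the ligand that activates Tek, differed by 0.29 and 0.06 from control in TBI and MASM + TBI rats (adjusted p = 0.332 and 0.976). Of 23 settings run for MASM + TBI against control, 5 gave the ligand list 1 call. For MASM + TBI against TBI 2 of 21 did so.

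Thbd and Vwf act on coagulation from the endothelial side. Thbd encodes thrombomodulin, which turns thrombin to activating protein C, and read 8.95, 9.29 and 8.79 in control rats, 9.28, 9.63 and 9.57 in TBI rats, and 9.55, 9.23, 9.07 and 8.96 in MASM + TBI rats. Control rat 2 was marginally above TBI rat 1, and otherwise the TBI rats exceeded the controls, while the MASM + TBI rats spread over both ranges. The difference of 0.48 for TBI against control (SE 0.19, adjusted p = 0.169) did not pass, nor did that of 0.19 for MASM + TBI against control (adjusted p = 0.680) or of -0.29 against TBI (adjusted p = 0.450). Vwf, the carrier of factor VIII that tethers platelets, read 5.15, 5.28 and 5.20 in control rats, 4.71, 4.32 and 4.42 in TBI rats, and 5.01, 5.51, 4.62 and 4.67 in MASM + TBI rats. All TBI rats lay below all controls, by 0.73 on average (-0.73), while MASM + TBI rats 3 and 4 lay among the TBI rats, rat 1 between the other groups and rat 2 above all controls; the study listed this probe from these same samples, so its direction is not independent.

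Of 12 genes of flow response and clotting control, 11 were measured, and 1 was called: Nos3, the endothelial nitric oxide synthase, whose product relaxes vessels. Nos3 read 7.39, 7.28 and 7.45 in control rats, 7.98, 8.13 and 8.02 in TBI rats, and 7.66, 7.84, 7.52 and 7.78 in MASM + TBI rats. The TBI rats were above all others, the controls below all others, and the MASM + TBI rats between them. It rose 1.59-fold after TBI (log2 0.67, SE 0.10, adjusted p = 0.00986), where 2.01% of all probes were called higher. Nos3 of MASM + TBI rats differed by 0.32 from control (adjusted p = 0.117) and by -0.35 from TBI (adjusted p = 0.126). A normexp background correction, which adds an offset of 50 to each signal and so shrinks folds of dim probes, took the rise of Nos3 under 1.5-fold (log2 0.39), and a replicate block and the methods' t-test ended its call as well (adjusted p = 0.0538 and 0.168). In the list 0 genes were called in the other comparisons, with 1 higher and 1 lower at the unadjusted rule for MASM + TBI against control and 0 for MASM + TBI against TBI. Proc, the protein C made by hepatocytes, had the list's brightest probe, and its difference was -0.10 after TBI (adjusted p = 0.537).

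Icam1, Vcam1 and Sele are the members that hold leukocytes. Vcam1, the partner of the integrin of Itga4 and Itgb1, read 10.08, 10.61 and 10.37 in control rats, 9.07, 10.60 and 10.59 in TBI rats, and 9.68, 9.44, 9.71 and 8.98 in MASM + TBI rats. All MASM + TBI rats were below all controls, whereas TBI rats 2 and 3 were level with the upper controls and TBI rat 1 lay with the MASM + TBI rats. For MASM + TBI against control the difference was -0.90 (SE 0.38, 95% interval -1.77 to -0.03), which met the unadjusted rule, by which Cdh5 and Vcam1 among members and 4.55% of all probes were lower, but not limma's adjusted one (adjusted p = 0.275). Against TBI rats it was -0.63 (SE 0.38, adjusted p = 0.446), and for TBI against control -0.26 (SE 0.41, adjusted p = 0.733). Leaving out TBI rat 1 changed these values: Vcam1 was then called lower in MASM + TBI than in TBI rats (-1.14, adjusted p = 0.0486, with 0.0486 to 0.734 over the rats left out), and TBI against control turned to 0.24 (adjusted p = 0.580). No other member was called between any pair of groups under the alternatives run, and the F test across the groups passed 1 member, again without TBI rat 1.

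Icam1, the ligand of the integrins of Itgb2, read 10.77, 11.55 and 11.43 in control rats, 11.08, 11.43 and 11.59 in TBI rats, and 11.05, 11.11, 10.97 and 10.79 in MASM + TBI rats. Control rat 1 was the lowest of all, and the MASM + TBI rats kept within the lower part of the range of the other groups. The difference was 0.12 for TBI and -0.27 for MASM + TBI against control (adjusted p = 0.782 and 0.587), and -0.39 for MASM + TBI against TBI (adjusted p = 0.384). Sele, the cytokine-induced E-selectin, was not well above background in any of the 10 rats, and its differences are given no fold. The selectin Selp, stored in endothelial granules and platelets, was not well above background in any rat either.

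On the leukocyte side and among related adhesion proteins, 13 of 15 listed genes were measured. For TBI against control 1 rose and 1 fell, and for MASM + TBI against control 1 rose and 2 fell, where 0.926% of all probes were called higher and 1.43% lower in the latter and 2.49% lower in the former. Between the irradiated groups 0 passed, with 4 of 13 lower at the unadjusted rule, beside 4.83% of all probes, and 0 higher. With scaling to the 75th percentile this list had 3 calls between the irradiated groups and 5 for TBI against control. The same scaling raised the calls over all 40945 probes from 570 to 5137 and from 1842 to 6950. The list's median was 0.01, -0.16 and -0.42 in those comparisons. F11r, a tight junction protein with the list's brightest probe, differed by -0.02 and 0.13 from control (adjusted p = 0.911 and 0.569).

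Jam3, a junctional adhesion molecule that binds the integrin of Itgam, was the gene that rose. It read 6.43, 6.66 and 6.03 in control rats, 7.76, 7.79 and 7.58 in TBI rats, and 7.29, 7.67, 7.52 and 7.88 in MASM + TBI rats, so that all irradiated rats were above all controls and the irradiated groups overlapped. Its rise was 2.52-fold after TBI (log2 1.33, SE 0.19, adjusted p = 0.00833) and 2.32-fold with MASM + TBI (log2 1.21, SE 0.18, adjusted p = 0.0122), with -0.12 between them (adjusted p = 0.781). With the normexp correction the rise after TBI was 0.65 on the log2 scale and still called, and that in MASM + TBI rats 0.56 and not called, being under 1.5-fold. Within slide 1, MASM + TBI rat 3 was 1.15 above the controls (adjusted p = 0.218 with the slide as a block, 0.335 within it).

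Itgb7 and Itga4 encode the chains of the lymphocyte integrin that binds MAdCAM and, with Itgb1 in place of Itgb7, VCAM. Itgb7 read 6.41, 6.23 and 6.11 in control rats, 5.15, 5.54 and 4.99 in TBI rats, and 4.69, 5.13, 4.65 and 4.75 in MASM + TBI rats, with every irradiated rat below every control. Its log2 difference was -1.02 after TBI (SE 0.18, adjusted p = 0.0173) and -1.44 in MASM + TBI rats (SE 0.17, adjusted p = 0.00413), and -0.42 between the irradiated groups (adjusted p = 0.246). Itga4 read 5.67, 6.39 and 5.80 in control rats, 5.21, 5.37 and 5.33 in TBI rats, and 3.90, 4.72, 4.88 and 4.48 in MASM + TBI rats. The groups did not overlap, with TBI rats in the middle. It fell in MASM + TBI rats (-1.46, SE 0.25, adjusted p = 0.0222), while -0.65 for TBI against control and -0.81 for MASM + TBI against TBI did not pass (adjusted p = 0.188 and 0.158).

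Several of these calls depended on few rats, on the fit or on the background correction. That of Itgb7 after TBI was lost without control rat 1 (adjusted p = 0.0547) or control rat 2 (0.0518), and that of Itga4 without control rat 2, control rat 3 or MASM + TBI rat 4 (adjusted p = 0.0718, 0.0689 and 0.0611). With only the compared groups in the fit, Itgb7 after TBI and Itga4 were not called either (adjusted p = 0.0571 and 0.0543). The normexp correction shrank the differences of Itgb7 to -0.33 and -0.40 and of Itga4 to -0.37, and all 3 calls ended. For MASM + TBI rat 3 against the controls of its slide, Itgb7 was at -1.60 (adjusted p = 0.0496 with the block, 0.128 within the slide) and Itga4 at -1.08 (adjusted p = 0.305 and 0.408).

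Some lymphocyte markers moved with these partners, and their part in the result was not tested. Of 7 T cell genes measured, Cd3e, Cd3g and Cd2 fell after TBI and Cd3e and Cd3g in MASM + TBI rats, and 0 rose. Over all probes 2.49% and 1.43% were called lower in these comparisons. Estimates against control were above 0 for 2 of 7 in each irradiated group: Lck, a T cell kinase, at 0.55 after TBI and 0.36 with MASM + TBI (adjusted p = 0.349 and 0.644), and Cd5. Cd3g, a chain of the T cell receptor complex, read 7.07, 7.31 and 7.09 in control rats, 2.84, 4.14 and 3.68 in TBI rats, and 4.40, 3.76, 3.09 and 2.93 in MASM + TBI rats, and all irradiated rats were far below the controls, with 2 of 3 TBI and 1 of 4 MASM + TBI rats well above background. The T cell list's summed linear signal was 581, 797 and 694 in control rats, 311, 256 and 466 in TBI rats, and 395, 428, 229 and 368 in MASM + TBI rats. Cd3e and Cd5 were not well above background in any rat. Cd3d, its brightest gene and the only one well above background on all 10 arrays, was not called. It read 8.40, 8.95 and 8.72 in control rats, 7.98, 7.30 and 8.43 in TBI rats, and 8.16, 8.38, 7.35 and 8.25 in MASM + TBI rats, so that control and TBI rats overlapped. Cd2, another T cell surface protein, was at least 5.14-fold lower after TBI (adjusted p = 0.00622), with 0 of 3 TBI rats and 2 of 4 MASM + TBI rats well above background. Between the irradiated groups limma called 0 T cell and 0 B cell genes, with 1 higher T cell gene, Cd2, and 0 B cell genes at the unadjusted rule. With the slide as a block the call of Cd3g in MASM + TBI rats held (adjusted p = 0.0493), and those of Cd3e and of Cd79b, a B cell gene, were lost (0.0673 and 0.143). The normexp correction ended the calls of Cd3e, Cd2 and Cd79b and kept those of Cd3g.

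Among B cell genes, 2 of 5 were measured, and Cd79b, part of the B cell receptor, was at least 4.98-fold lower after TBI and at least 2.55-fold lower in MASM + TBI rats (adjusted p = 0.00484 and 0.00378). The summed signal of that list was 202, 164 and 168 in control rats, 157, 216 and 255 in TBI rats, and 156, 118, 135 and 149 in MASM + TBI rats, mostly from Cd22, and Cd79b was not well above background in any irradiated rat. Thus the sum did not follow Cd79b. The bounds of Cd79b differ because the lowest signal well above background was 2.54 to 3.16 on TBI and 3.68 to 4.09 on MASM + TBI arrays. They show no difference between the irradiated groups, where Cd79b was at -0.11 (adjusted p = 0.906).

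**Figure D3:**
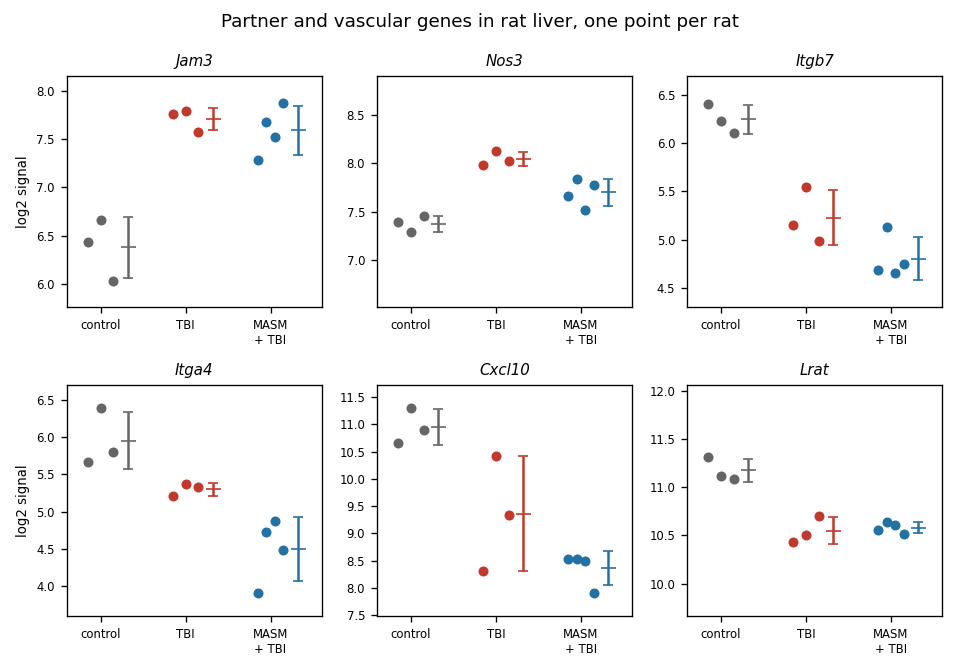
Log2 signal in each rat of Jam3, Nos3, Itgb7, Itga4, Cxcl10 and Lrat, 1 point per rat, with the group mean and SD as a bar to the right. Jam3 and Nos3 are higher and Itgb7, Itga4, Cxcl10 and Lrat are lower in all 7 irradiated rats than in the 3 controls; each panel has its own axis.

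Genes that cytokines and NF-kB induce, as they do Icam1, Vcam1 and Sele, were measured for 12 of 15. For TBI against control 0 were called by limma, with 2 higher and 1 lower at the unadjusted rule. In MASM + TBI rats 1 fell against control, with 3 lower at the unadjusted rule. In MASM + TBI against TBI 0 were called, though 7 of 12 were lower at the unadjusted rule, beside 4.83% of all probes, and 0 higher, and the list's median was -0.83, beside 0.04 over all probes. Of 21 settings run for that comparison, 5 gave this list calls, at most 4 (without TBI rat 1). For TBI against control 4 of 21 gave 1 call. Nfkbia, the inhibitor that NF-kB induces and the list's brightest gene, read 10.93, 11.34 and 11.15 in control rats, 11.35, 12.10 and 12.23 in TBI rats, and 10.97, 11.05, 11.44 and 10.23 in MASM + TBI rats. TBI rats 2 and 3 were the highest of all, and TBI rat 1 was level with control rat 2 and MASM + TBI rat 3 (MASM + TBI against TBI -0.97, adjusted p = 0.162).

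Cxcl10, an interferon-induced chemokine that draws T cells, was the called gene of this list. It read 10.66, 11.30 and 10.90 in control rats, 8.31, 10.42 and 9.34 in TBI rats, and 8.53, 8.52, 8.50 and 7.90 in MASM + TBI rats. All irradiated rats were below all controls, and the TBI rats were widely spread. It fell 6.02-fold in MASM + TBI rats (log2 -2.59, SE 0.44, adjusted p = 0.0214), with -1.59 for TBI against control (adjusted p = 0.0886), and did not pass between the irradiated groups (adjusted p = 0.296). Its call was lost without control rat 2 or 3 (adjusted p = 0.0831 and 0.0776) or MASM + TBI rat 1 or 4 (0.0591 and 0.0594), and MASM + TBI rat 3 was at -2.45 against the controls of its slide (adjusted p = 0.0592 with the block, 0.172 within it).

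TBI rat 1 was often the lowest TBI rat in some lists and not in others. It was the lowest of the 3 for 10 of 12 cytokine-induced genes, 9 of 13 adhesion partners, 8 of 11 flow and clotting genes and 5 of 6 Kupffer cell genes, and for 9 of 14 sinusoidal and 10 of 18 general endothelial genes. It was so for 3 of 8 members, where TBI rat 3 was lowest for 4, for 2 of 7 ligands and for 26.4% of all probes. Without it, MASM + TBI against TBI called Dnase1l3, a secreted nuclease of the sinusoidal list, lower at -0.79 (adjusted p = 0.00416), and 4 cytokine-induced genes lower: Il1b at -2.57, Birc3 at -1.36, Cx3cl1 at -0.89 and Nfkbie at -0.82 (adjusted p = 0.0258, 0.0209, 0.0188 and 0.0409). Among adhesion partners it then called Itgam, an integrin chain of myeloid cells that binds ICAM1, at -2.13, Cd44, the hyaluronan receptor, at -2.08, and Jam2 at -0.64 (adjusted p = 0.0448, 0.0180 and 0.0450). Cd22, a B cell receptor inhibitor, at -0.77 and Pf4, a platelet chemokine, at -1.07 were called lower too (adjusted p = 0.0306 and 0.0182). With all rats these genes were not called in that comparison, Dnase1l3 being at -0.56 (adjusted p = 0.141). TBI rat 1 was singled out from these same values and read lowest of the TBI rats for each of these genes. Leaving it out therefore lowers MASM + TBI against TBI by itself, and these calls are a description and no support. Over all probes the count went from 570 to 1075 without TBI rat 1, and to 1084 without TBI rat 3, for which no genes are named here.

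Kupffer cells are the resident macrophages of the sinusoids, and their part in these differences was not tested. With all rats 0 of 6 measured genes were called by limma in any comparison. At the unadjusted rule 1 was higher for TBI against control (6.53% of all probes) and 0 passed for MASM + TBI against control. For MASM + TBI against TBI 3 were lower, beside 4.83% of all probes. The summed linear signal of the list was 47321, 67243 and 55336 in control rats, 46890, 87142 and 64233 in TBI rats, and 46279, 46354, 40039 and 37343 in MASM + TBI rats, with Clec4f its brightest gene and all 6 genes well above background in every rat. Every MASM + TBI rat was below every other rat in this sum, though TBI rat 1 and control rat 1 were only just above the highest of them. The sum comes mostly from Clec4f, for which TBI rat 1 (15.16) lay just below MASM + TBI rat 2 (15.18). Each other gene of the list overlapped between MASM + TBI and control rats. Without TBI rat 1, the lowest TBI rat for both, Adgre1 and Cd68, both macrophage proteins, were called lower in MASM + TBI than in TBI rats (-1.59 and -1.15, adjusted p = 0.0220 and 0.0491).

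Beyond the members, 14 of 17 further sinusoidal genes were measured and 0 were called by limma in any comparison, with 0 at the unadjusted rule for TBI against control, 1 lower for MASM + TBI against control and 1 higher for MASM + TBI against TBI. Other settings gave this list 1 call in 5 of 23 runs for MASM + TBI against control and in 2 of 21 for TBI against control. Their median difference from control was 0.29 after TBI and 0.23 in MASM + TBI rats, beside -0.03 and 0.00 over all probes. Of the 14 estimates 12 and 10 were above 0. These counts and medians include 2 genes, Wnt9b and Bmp6, that were not well above background in any rat and have no readable direction. Wnt9b had the list's largest estimate after TBI, and Bmp6 was the gene higher at the unadjusted rule for MASM + TBI against TBI. The following were picked after their values were seen. Lyve1, the hyaluronan receptor of sinusoidal and lymphatic endothelium, read 10.86, 11.22 and 11.16 in control rats, 11.44, 11.70 and 11.69 in TBI rats, and 11.92, 11.60, 11.43 and 11.53 in MASM + TBI rats. Fcgr2b, the receptor with which sinusoids clear immune complexes and the list's brightest gene, read 12.29, 12.09 and 11.80 in control rats, 12.49, 12.51 and 12.69 in TBI rats, and 12.59, 12.57, 12.41 and 12.58 in MASM + TBI rats. For both genes all irradiated rats were above all controls, with differences after TBI of 0.53 and 0.50 (SE 0.15 and 0.13) that stayed under 1.5-fold and did not pass (adjusted p = 0.0819 and 0.0612).

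Oit3, a secreted protein found in sinusoidal endothelium, went the other way. It read 10.93, 11.07 and 11.11 in control rats, 10.02, 10.59 and 10.87 in TBI rats, and 10.50, 10.33, 10.40 and 10.02 in MASM + TBI rats, all irradiated rats below all controls, at -0.54 and -0.73 (adjusted p = 0.168 and 0.0972). Plvap, which forms the diaphragms of fenestrae and is scarce in healthy sinusoids, read 5.69, 6.86 and 6.52 in control rats, 5.25, 7.47 and 7.13 in TBI rats, and 6.03, 5.65, 5.08 and 4.69 in MASM + TBI rats. TBI rats 2 and 3 were the highest, control and MASM + TBI rats overlapped, and TBI rat 1 lay low among the MASM + TBI rats (MASM + TBI against TBI -1.26, SE 0.57, adjusted p = 0.314).

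General endothelial genes were measured for 18 of 22, and 0 were called by limma in any comparison, at the unadjusted rule also 0, with medians of 0.08, -0.10 and -0.05 for TBI against control, MASM + TBI against control and MASM + TBI against TBI. Other settings gave 1 call in 1 of 21 runs for TBI against control, with the mean of all probes of a gene. For MASM + TBI against TBI 1 of 21 did so, without TBI rat 3. Adgrl4, an adhesion receptor of endothelium with the list's brightest probe, differed by 0.46 after TBI (adjusted p = 0.153), Tie1, the orphan partner of Tek, by 0.28 (adjusted p = 0.414) and Flt1, the VEGF receptor that shares ligands with Kdr, by 0.16 (adjusted p = 0.670). The summed linear signal of this list was 4324, 4432 and 4591 in control rats, 4348, 5305 and 5134 in TBI rats, and 4597, 4609, 4148 and 4286 in MASM + TBI rats. TBI rats 2 and 3 were again the highest, and the groups overlapped.

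Of the neighbours of sinusoidal endothelium, stellate cells were measured by 6 of 6 genes. For TBI and for MASM + TBI against control 1 was called lower and 0 higher, beside 2.49% and 1.43% of all probes called lower. In each of these comparisons 2 of the 6 estimates were above 0. Lrat, which makes the retinyl esters they store, read 11.31, 11.12 and 11.09 in control rats, 10.43, 10.51 and 10.71 in TBI rats, and 10.55, 10.64, 10.61 and 10.51 in MASM + TBI rats. All irradiated rats lay below all controls, and Lrat fell 1.54-fold after TBI (log2 -0.62, adjusted p = 0.0116) and 1.51-fold with MASM + TBI (log2 -0.60, adjusted p = 0.0147). Both calls ended with scaling to the 75th percentile (-0.57 and -0.50) and without control rat 1 (-0.56 and -0.53). The former was also lost without TBI rat 1 (-0.57), and the latter without MASM + TBI rat 1 (adjusted p = 0.0511) or rat 4 (-0.57) and with the normexp correction (-0.54). MASM + TBI rat 3 was at -0.56 against the controls of its slide (adjusted p = 0.129 with the block), and with only the compared groups in the fit the call after TBI was lost (0.0664). A second probe of Lrat was called in both comparisons too (-0.77 and -0.62). Rgs5, named after its values were seen, went the other way without a call. All irradiated rats (6.79 to 7.16) lay above all controls (6.61 to 6.75) for that gene. Between the irradiated groups 0 of 6 stellate genes were called by limma, at the unadjusted rule also 0.

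Platelet genes were measured for 5 of 6, and 1 rose after TBI: Gp1ba, the platelet receptor for von Willebrand factor. It read 3.80, 4.07 and 3.60 in control rats, 5.38, 5.78 and 4.93 in TBI rats, and 4.97, 5.40, 4.10 and 5.05 in MASM + TBI rats, all irradiated rats above all controls, MASM + TBI rat 3 only barely. It was 1.54 higher after TBI (adjusted p = 0.0375), while 1.06 for MASM + TBI against control did not pass (adjusted p = 0.125). Just 1 of 3 controls was well above background, and the call was lost on leaving out any of 7 rats (every control, TBI rats 1 and 2, MASM + TBI rats 1 and 4; adjusted p of 0.0550 to 0.120) with only the compared groups in the fit (0.0511) and with the normexp correction, which shrank the rise to 0.29 (0.117). Pf4, the list's brightest gene, differed by 0.55 after TBI (adjusted p = 0.258). Neutrophil, smooth muscle, cholangiocyte and hepatocyte lists, with 5, 3, 2 and 5 genes measured, had 0 genes called by limma in any comparison. Other settings gave 1 smooth muscle call in 4 of 23 runs for MASM + TBI against control. For TBI against control they gave at most 2 hepatocyte calls in 3 of 21 runs and 1 cholangiocyte call in 1 of 21. At the unadjusted rule the counts were 0 for neutrophil and cholangiocyte genes, 1 lower smooth muscle gene for MASM + TBI against each other group, and 1 higher hepatocyte gene for each irradiated group against control. The brightest genes of these lists differed after TBI by 0.46 for S100a9, a calprotectin subunit, 0.16 for Myh11, the smooth muscle myosin, -0.34 for the epithelial adhesion molecule Epcam and 0.17 for Serpina1, the plasma antitrypsin (adjusted p = 0.600, 0.874, 0.504 and 0.209).

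Lmbr1l, a lipocalin receptor homologue, the actin regulator Limk1, and Prdm2, a zinc finger protein, had the patterns over the 10 rats most like that of Cdh5, the member with the smallest F test p. The root mean square difference of log2 values, each centred on the gene's own mean, was 0.107, 0.116 and 0.123 among 5623 candidate genes, beside an SD of 0.34 of Cdh5 itself over the rats, which is a description without a test.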

How the data were processed

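The authors deposited 1 linear intensity per spot for 10 one-colour arrays, background already subtracted by Agilent Feature Extraction 10.7.3.1, and the deposited value table differed from the scanner files by at most 0. Of each array, 1639 control spots and all outlier spots were dropped; saturation affected 0 spots. After log2 and quantile normalization, probe means were complete for 40945 of 41012 probes, of which RefSeq accessions gave 16950 a symbol. Spots well above background made up 57.2% to 59.9% on control, 64.1% to 70.1% on TBI and 56.2% to 60.2% on MASM + TBI arrays.

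The fit used limma (3.58.1), with group means over all 10 arrays and Benjamini-Hochberg adjustment over all probes, in R (4.3.3) and data.table (1.17.8), and was tested on simulated data; adjusted p values are from it. Plots come from Python (3.11.15) and matplotlib (3.10.9). A gene is represented by its brightest probe. Where a group had no rat well above background, the bound puts each dim value at the lowest signal well above background on its array. Every member is named, and from the other lists each called gene and the brightest; further genes were named after values were seen. The members and lists were chosen with earlier results of these data known. Some genes of the wider lists are not reported here and enter no count or sum of a list.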

Additional observations from a re-analysis of the deposited data

Results flagged for a closer look

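In the group of 4 MASM + TBI rats, a single rat lay far from the other 3 for 8 of the 77 probes looked at, measured as its gap to the nearest rat over the whole range of the group, and chance alone marks about 1 in 20 groups in this way. MASM + TBI rat 3 was low for Kdr (13.53 beside 13.78 to 13.83, a ratio of 0.854), for Fcgr2b (12.41 beside 12.57 to 12.59, 0.883) and for Vegfc (10.15 beside 10.27 to 10.29, 0.844), and this rat was the only one of its group on slide 1. MASM + TBI rat 4 was low for Cxcl10 (7.90 beside 8.50 to 8.53, 0.954), for Birc3 (6.99 beside 7.33 to 7.35, 0.961) and for Btg2 (10.80 beside 12.61 to 12.93, 0.849), and high for Cx3cl1 (7.75 beside 7.61 to 7.63, 0.883). MASM + TBI rat 1 was low for Cd34, a sialomucin of continuous endothelium that was not well above background in any rat of this group (1.92 beside 3.19 to 3.42, 0.845). The part of the slide in the values of rat 3 was not tested.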

How the results depend on the processing

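The count of members called was 0 in each comparison and across the 3 groups under every alternative except without TBI rat 1, when Vcam1 was called for MASM + TBI against TBI and 1 member across the groups, so leaving out a rat gave 0 to 1; the cause was not tested. Some directions turned. Leaving out each rat gave, for TBI against control, -0.0637 to 0.327 for Pecam1, -0.124 to 0.266 for Icam1 and -0.522 to 0.244 for Vcam1, and for MASM + TBI against control -0.268 to 0.0399 for Tek. Kdr for MASM + TBI against control was -0.0470 with the slide as a fixed block and within slide 1, and 0.0353 to 0.240 on leaving out each rat. Thbd and Icam1 kept their signs in that comparison, at 0.0744 to 0.333 and -0.509 to -0.119 over the rats left out. Sele, at background on all arrays and so without a readable direction, was 0.0503 for TBI against control and -0.0333 for MASM + TBI against TBI with the normexp correction. Calls over all probes moved more. Leaving out each rat gave 914 to 2312 for TBI against control, 461 to 1044 for MASM + TBI against control, 240 to 1084 for MASM + TBI against TBI and 1085 to 3046 across the groups. For TBI against control 1842 became 6950 with scaling to the 75th percentile (23.2% of them higher, against 44.6%), 553 with normexp, 943 with only the groups compared in the fit, 4078 with the slide as a random block (correlation within slides -0.133) and 10 with the methods' t-test. For MASM + TBI against TBI 570 became 5137 (82.5% higher, against 55.1%), 79 (86.1% higher), 255, 1401 and 3. For MASM + TBI against control 963 became 455 with normexp, 1805 with the slide as a random block, 525 as a fixed block, 198 within slide 1 and 28 with the t-test. Same-numbered rats of different groups did not deviate together (9 pairs, r of -0.125 to 0.169, 1 over 0.1), so the numbers do not pair the rats; a replicate block changed 1842, 963 and 570 calls to 1026, 298 and 22, and ended those of Nos3, Vegfd, Itga4, Cxcl10 and Lrat and, for MASM + TBI against control, of Jam3 and Cd79b.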
